A study of Mus musculus with 34 samples.

Results

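The 10 genes described here encode intermediate filament proteins and parts of the nuclear envelope: vimentin (Vim), synemin (Synm), nestin (Nes), the lamins (Lmna, Lmnb1, Lmnb2), emerin (Emd), the SUN proteins (Sun1, Sun2) and the lamin B receptor (Lbr). They were taken by name from the 34 deposited single-cell tables of ear skin, with earlier results of these data known. All 10 were listed among the genes of those tables. Mast cells (MCs) were sorted as CD45+Lin-YFP+ cells from male mice aged 7 weeks, from 3 WT mice (Mcpt5-Cre+/-, R26LSLYFP, with intact Tln1) and 3 Tln1ΔMC mice (Mcpt5-Cre, Tln1fl/fl, R26LSLYFP). The labels give the strain of both groups as C57BL/6J, and the study's methods place the Mcpt5-Cre Tln1fl/fl line and its reporter crosses on the albino variant of it (Tyrc-2J/c-2J). Cre and the YFP reporter were therefore present in both groups, and deletion was limited to cells that had expressed Mcpt5, a gene of connective tissue MCs. The other population was CD45-GFP+ cells from Myh11-GFP/+ ear skin, in which the promoter of smooth muscle myosin heavy chain drives GFP. The study's methods place this line on C57BL/6J without the albino variant. Their account of this sort gives neither age nor sex. For all genotypes they give only an age range of several weeks and sex-matched mice, female or male. Background, and possibly age and sex, therefore went with cell type in every ratio of Myh11-GFP cells to MCs. The comparison between genotypes asks whether loss of talin, the adaptor between integrins and actin, went with other levels of these genes. The Myh11-GFP cells give a mixed stromal sort of the same tissue for reference. The study describes them as smooth muscle cells with some pericytes and a small share of fibroblasts.

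Vimentin, synemin and nestin belong to the cytoplasmic intermediate filaments, a network that resists strain and, through linker proteins, reaches adhesion sites and the nuclear surface. Vimentin forms filaments by itself and is typical of mesenchymal cells and leukocytes, whereas synemin and nestin need a partner such as vimentin or desmin. Lamins form the meshwork beneath the inner nuclear membrane: Lmna encodes the A-type lamins, abundant in stiff tissues, and Lmnb1 and Lmnb2 encode the B-type lamins. Emerin and the lamin B receptor are inner membrane proteins that bind lamins and chromatin, and SUN proteins join the lamina to nesprins of the outer membrane and so to the cytoskeleton.

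Cells were kept above 1000 transcripts if Kcnq1ot1 took no more than 2%. This left 2477 MCs (904 WT, 1573 Tln1ΔMC) and 330 Myh11-GFP cells. The study states the same limits and reports the same number of smooth muscle cells but fewer MCs. It also set aside a small cluster with macrophage features. The cause of the difference in MCs was not tested. Levels are transcripts per 10000 transcripts outside genes named Gm plus a digit, because those predicted genes took between 14.2% and 58.01% of the transcripts of a mouse and 18.6% of those of the Myh11-GFP cells. Outside them, a mouse had between 699401 and 5238325 transcripts, the most in Tln1ΔMC mouse 3, which had 10 libraries where each other mouse had 4. In the sums over cells, the 9 MC markers took between 633 and 866 transcripts per 10000 in each mouse and at most 0.265 in each Myh11-GFP library. The summed fibroblast markers lay between 26.3 and 99.4 per 10000 in WT mice and between 1.37 and 12.998 in Tln1ΔMC mice, without overlap, while macrophage markers lay between 1.66 and 42.3 and keratinocyte markers between 0.0641 and 28.7 over all mice. Without the cells with over 1% of these 3 lists together, 94 of the MCs, the log2 fold changes described below kept their side of the threshold.

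Of the kept cells, 5 wells stood apart with more than 40000 transcripts each, where the next deepest cell had 29067. The largest, in library 8 of Tln1ΔMC mouse 3, held 431991 transcripts or 44.8% of its library, with Krt5 and Krt14 among its leading genes and 2.69 Vim transcripts per 10000. The 5 wells lay in WT mouse 2, WT mouse 3 and Tln1ΔMC mouse 3. In addition, 17 kept cells carried barcodes from the set that their library did not use, and 9 of them shared the barcode of one of the 2 largest wells. For Vim, Lmna, Emd and Tln1, the levels of these 3 mice are given with and without the wells.

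Tln1, the targeted gene, was at 4.51, 5.92 and 6.71 transcripts per 10000 across WT mice 1, 2 and 3, and at 5.57, 4.33 and 3.63 in Tln1ΔMC mice 1, 2 and 3. Without the outsized wells, WT mice 2 and 3 were at 6.31 and 7.03 and Tln1ΔMC mouse 3 at 3.90. The groups overlapped, and the log2 fold change was -0.31 ± 0.25 (SE, n = 3 mice per group, adjusted p = 0.872, limma). Reads of this method come from the 3′ part of transcripts, so a transcript that lacks a deleted part elsewhere can still be counted, and these values do not check the genotype labels.

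In GENCODE M21 for GRCm38, the build of the files (mm10), Vim lies at chr2:13573927-13582826 on the plus strand, Lmna at chr3:88480147-88509956 on the minus strand and Nes at chr3:87971078-87980451 on the plus strand. Synm lies at chr7:67730160-67759742 and Lbr at chr1:181815335-181843046, both on the minus strand, and Emd at chrX:74254687-74261548 on the plus strand. All 10 genes are protein coding. Exons of Emd overlap those of the predicted gene Gm14686 on the same strand, and exons of Lbr those of Gm26004. Per the study's methods, reads that matched several loci were dropped, and loci with large sequence overlap were merged. How this changed the counts of Emd and Lbr was not tested.

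Vim was the most abundant of the 10 genes in MCs and stood at rank 16 of all genes outside the Gm names by mean level. Its level was 47.1, 65.97 and 62.1 per 10000 across WT mice 1, 2 and 3, and 59.01, 66.7 and 44.2 in Tln1ΔMC mice 1, 2 and 3. The ranges overlapped, with a Tln1ΔMC mouse at either end. Without the outsized wells, WT mice 2 and 3 were at 72.8 and 65.3 and Tln1ΔMC mouse 3 at 48.6, so that WT mice 2 and 1 were then the highest and the lowest. Means were 58.4 ± 9.96 in WT and 56.6 ± 11.4 in Tln1ΔMC (SD, n = 3 each). In the fit across all genes, Vim had a log2 fold change of -0.02 ± 0.28 (SE, adjusted p = 0.992, limma).

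Lmna followed at rank 25. WT mice 1, 2 and 3 had 20.03, 37.4 and 42.3 Lmna transcripts per 10000, and Tln1ΔMC mice 1, 2 and 3 had 34.6, 36.2 and 26.1. WT mouse 1 was the lowest of all mice and WT mouse 3 the highest, so that the whole Tln1ΔMC range lay inside the WT range, as it did without the outsized wells, when WT mice 2 and 3 were at 40.6 and 44.1 and Tln1ΔMC mouse 3 at 27.8. The log2 fold change was 0.05 ± 0.33 (SE, adjusted p = 0.987, limma).

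**Figure D1:**
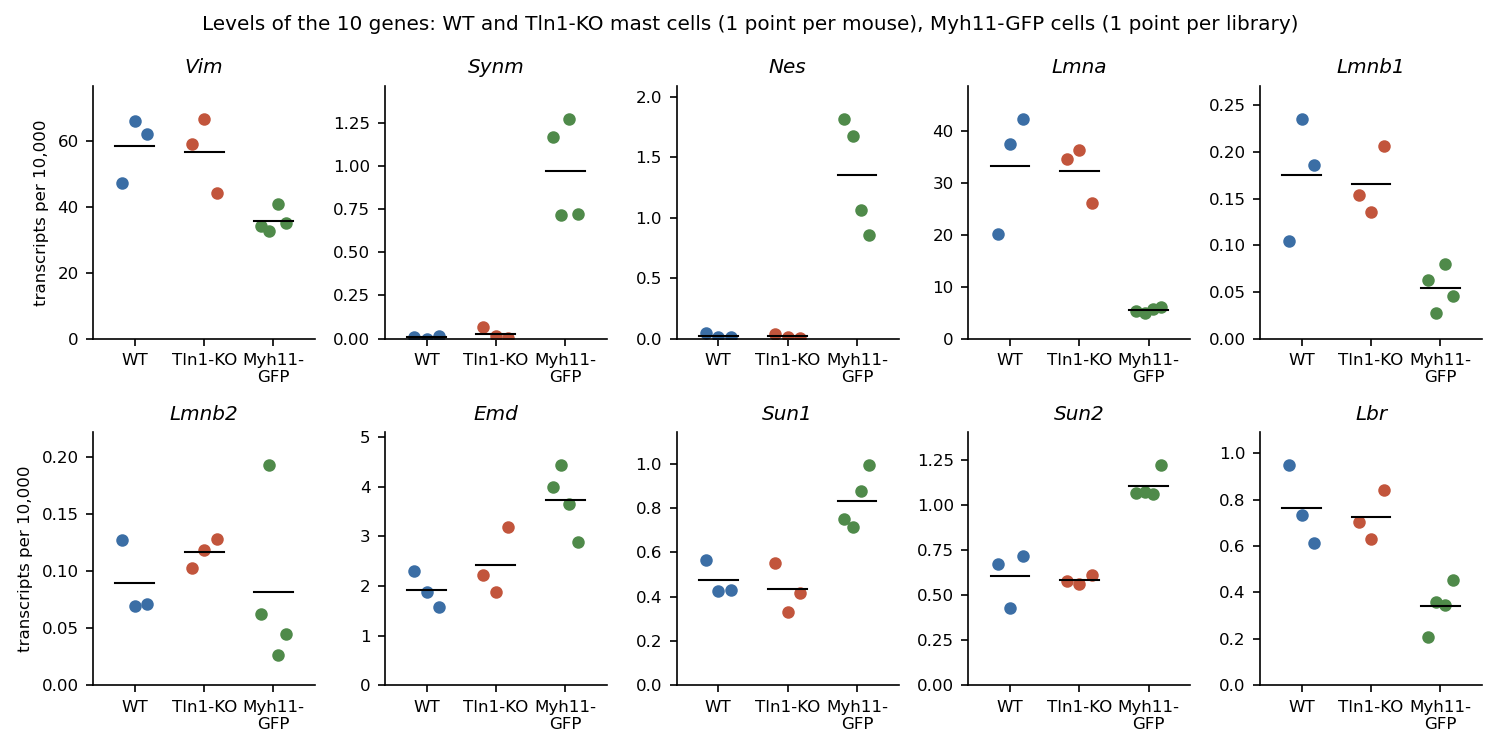
Levels of the 10 genes in transcripts per 10000 outside Gm genes (vertical axes, each from 0), with 1 point per mouse for WT and Tln1ΔMC MCs (Tln1-KO) and 1 point per library for Myh11-GFP cells; horizontal lines are means. WT and Tln1ΔMC points overlap in every panel, whereas all Myh11-GFP libraries lie above all mice for Synm, Nes, Sun1 and Sun2 and below all mice for Vim, Lmna, Lmnb1 and Lbr.

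The other nuclear envelope genes were far lower than Lmna. Emd was at 2.31, 1.87 and 1.57 per 10000 in WT and at 2.22, 1.88 and 3.19 in Tln1ΔMC mice. Only Tln1ΔMC mouse 3 exceeded every WT mouse, and without the outsized wells it was at 3.28, with WT mice 2 and 3 at 1.87 and 1.68. Its log2 fold change of 0.35 ± 0.22 (SE, adjusted p = 0.846, limma) did not pass the test.

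Lbr was at 0.947, 0.732 and 0.614 per 10000 in WT and at 0.705, 0.628 and 0.840 in Tln1ΔMC mice. Sun2 was at 0.670, 0.427 and 0.715 in WT and at 0.576, 0.560 and 0.609 in Tln1ΔMC mice. Sun1 was at 0.566, 0.427 and 0.429 in WT and at 0.551, 0.331 and 0.416 in Tln1ΔMC mice. For these genes the groups overlapped, and log2 fold changes lay between -0.11 and 0.01.

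The B-type lamins were the lowest in MCs after Synm and Nes. Lmnb1, with as few as 9 unique molecular identifiers (UMIs) in a mouse, lay between 0.104 and 0.235 per 10000, and Lmnb2, with as few as 5, between 0.0697 and 0.128. Their log2 fold changes were 0.00 ± 0.37 and 0.42 ± 0.41 (SE, adjusted p from limma 1.000 and 0.894). With few UMIs in WT mice, the precision for these genes is low.

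Synm and Nes were hardly found in MCs. Synm gave 10 UMIs in all, 5 of them in Tln1ΔMC mouse 1 and none in WT mouse 2, where 0 counts allow a level of up to 0.0261 per 10000. Nes gave 12 UMIs, at least 1 in each mouse. Neither reached 10 transcripts in 3 mice, so neither entered the test.

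None of the 8 tested genes passed the threshold, and their median log2 fold change was 0.01 against 0.00 over all genes. Across all 8601 genes tested, 0 were called (0%) by limma at an adjusted p of 0.05, while 502 had an unadjusted p under 0.05, and limma with voom weights called 2. Levels of WT and Tln1ΔMC mice did not overlap for 11.6% of all genes tested and for 0 of the 10 genes described here. A p that misses the threshold does not show that the genotypes had the same levels. The study names Vim and Lmna in a cytoskeletal signature from MC clusters enriched in WT cells, with a test that compared cells. The comparison here took all kept cells of a mouse together and did not repeat that test. In simulated data with these depths and a dispersion of 0.05, 29.9% of genes changed 2-fold and 91.2% of those changed 4-fold were found. That dispersion was set for every gene and not estimated from these mice. The shares found may therefore be too high for genes that vary more between mice.

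**Figure D2:**
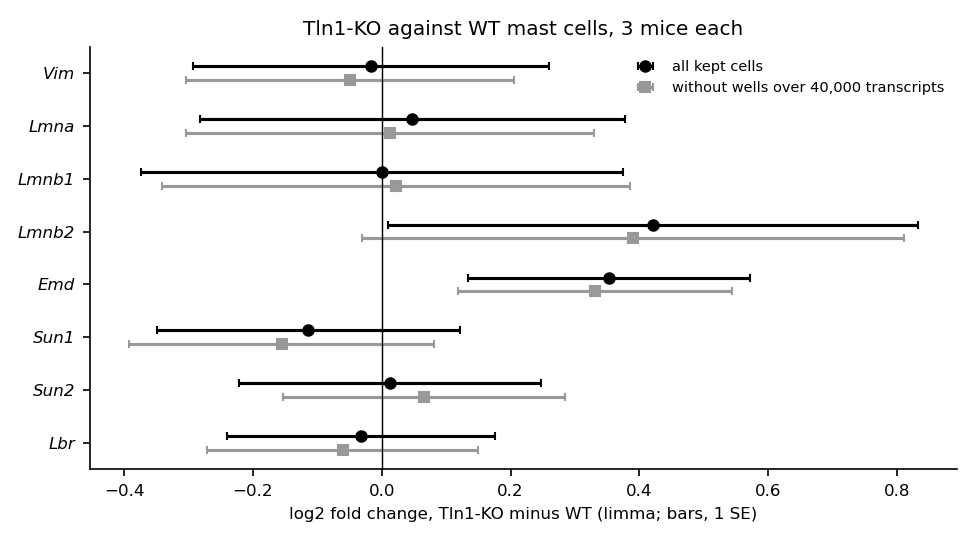
Log2 fold changes of the 8 tested genes, Tln1ΔMC minus WT (horizontal axis; symbols are limma estimates, bars 1 SE, 3 mice per group), for all kept cells (black) and without the 5 wells over 40000 transcripts (grey). Estimates lie between -0.11 and 0.42 with all cells, and leaving out the wells moves each by less than its SE.

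In some libraries, unused barcodes held few transcripts in amounts that followed the used barcodes of other libraries. By the mean correlation of these log amounts, sets were formed after the data were seen: WT mouse 1 with Tln1ΔMC mouse 1 (0.21 and 0.24 in either direction), WT mice 2 and 3 with Tln1ΔMC mouse 2 (0.28 to 0.50), and Tln1ΔMC mouse 3 alone (0.40 among its own libraries). The sets are not sharply separated. Outside them, values reached 0.14 between MC mice (Tln1ΔMC mouse 1 with mouse 2) and 0.19 for Myh11-GFP libraries with WT mouse 2. Deviations of gene levels from the genotype mean correlated at 0.42 for WT mouse 2 with Tln1ΔMC mouse 3, of different sets. Between the genotypes within sets, these correlations were 0.16, -0.21 and 0.22. Within the first set, Vim and Lmna were higher in the Tln1ΔMC mouse (59.01 against 47.1 and 34.6 against 20.03 per 10000). Within the second, Tln1ΔMC mouse 2 had a Vim level of 66.7 beside 65.97 and 62.1 and a Lmna level of 36.2 beside 37.4 and 42.3. With the set as a block, the log2 fold changes were 0.25 ± 0.19 for Vim and 0.34 ± 0.24 for Lmna (SE, adjusted p from limma 0.716 and 0.688), so that the sign for Vim turned. Tln1ΔMC mouse 3 has no WT mouse in its set, and for it the set and the genotype cannot be told apart.

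Vim and Lmna also differed between libraries of the same mouse. Over the 30 MC libraries, Vim ranged from 21.3 to 77.3 per 10000 with a median of 54.9, and Lmna from 15.9 to 50.5 with a median of 32.5. Library 8 of Tln1ΔMC mouse 3 was the lowest for both. Without its 2 outsized wells it was at 43.3 instead of 21.3 for Vim and at 23.8 instead of 15.9 for Lmna, which placed it just below the other 9 libraries of that mouse.

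**Figure D3:**
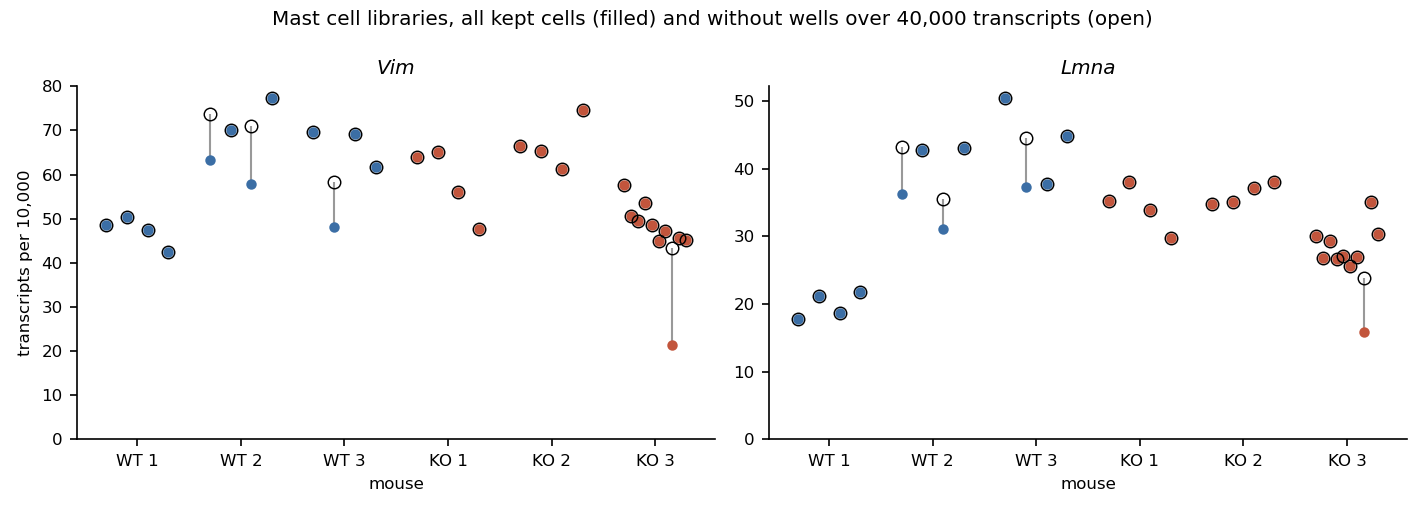
Vim and Lmna levels in transcripts per 10000 (vertical axes) in each library of each MC mouse (horizontal axis), for all kept cells (filled points, blue WT, red Tln1ΔMC) and without wells over 40000 transcripts (open points, joined by grey lines). Library 8 of Tln1ΔMC mouse 3 moves from 21.3 to 43.3 for Vim, and 3 WT libraries also move upward.

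Within mice, library profiles most like that of Vim, over the 30 MC libraries after each mouse's mean was subtracted and among 1607 genes, were those of Ms4a2 (r = 0.878), Cma1 (0.869), B4galt5 (0.854), Stard13 (0.851) and Itm2c (0.843). Ms4a2 encodes the beta chain of the high-affinity IgE receptor and Cma1 a MC chymase. For Lmna they were Basp1 (r = 0.897), Rab44 (0.866), Cyp11a1 (0.860), Gnaz (0.836) and Itga2b (0.830). Without the 5 outsized wells, none of the first 5 genes stayed among the 5 most like Vim, which were then led by Lrrc58 (r = 0.668), and only Cyp11a1 and Gnaz stayed for Lmna. The correlation between Vim and Lmna themselves was 0.769 with these wells and 0.246 without them. These values are descriptions, since the points share libraries and depth.

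Vim was found in nearly every MC. After each cell was thinned to 1000 UMIs outside Gm genes, which left out between 11 and 85 cells per mouse, at least 1 Vim UMI was left in 94.5%, 100% and 98.0% of cells from WT mice 1, 2 and 3, and in 97.5%, 96.6% and 95.7% of cells from Tln1ΔMC mice 1, 2 and 3. The medians lay between 4 and 7 Vim UMIs per cell. Lmna was found in 76.7%, 93.1% and 92.3% of cells in WT mice and in 86.3%, 86.9% and 87.1% in Tln1ΔMC mice. WT mouse 1 was again apart from the other mice on the low side, with a median of 1 Lmna UMI.

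Cells of the same mouse differed more than counting would give. The variance of the Vim UMIs was between 2.01 and 2.58 times their mean in each mouse, and that of Lmna between 1.79 and 3.26 times. Spearman correlations between Vim and Lmna UMIs over the thinned cells of a mouse lay between 0.125 and 0.372, a description over cells of the same library pool. For Emd, the share of cells with a UMI was 15.6% ± 1.27 in WT and 21.3% ± 6.76 in Tln1ΔMC mice (SD, n = 3 each, exact two-sided permutation p = 0.3, adjusted p = 1.0 over the 10 genes). The smallest p that 3 mice against 3 can give is 0.1, so this test could not pass 0.05 for any gene.

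**Figure D4:**
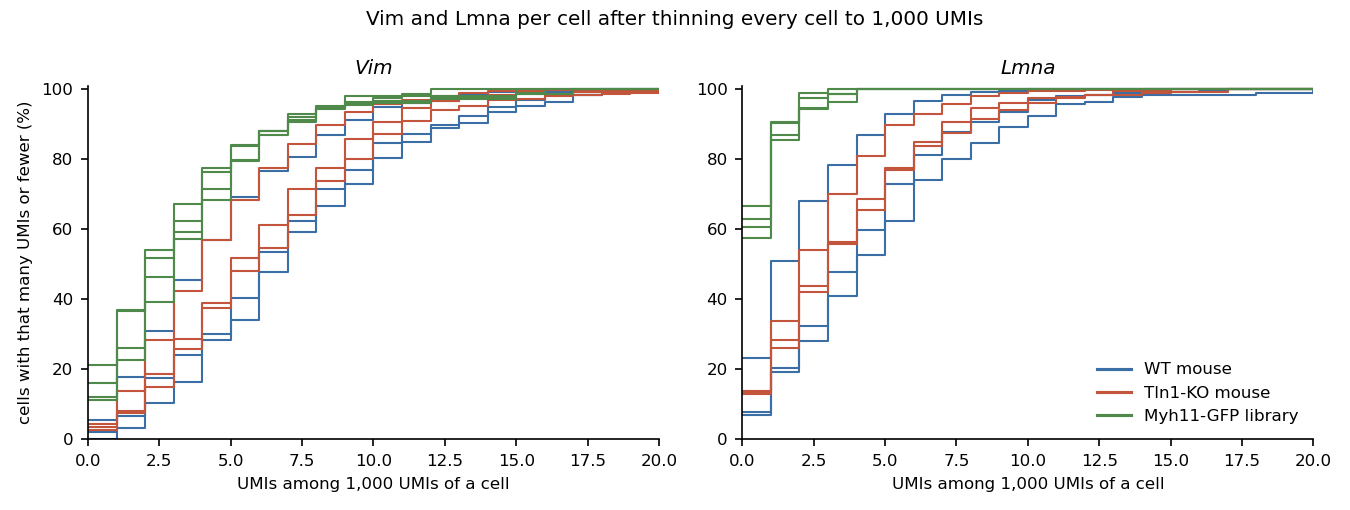
Cumulative share of cells (vertical axis, %) by number of Vim or Lmna UMIs among 1000 UMIs of a cell (horizontal axis), with 1 line per WT mouse (blue), Tln1ΔMC mouse (red) or Myh11-GFP library (green). WT and Tln1ΔMC lines interleave; a Lmna UMI was left in between 33.3% and 42.6% of the cells of a Myh11-GFP library, so these lines start above all mice.

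Myh11-GFP cells had another composition of these genes. Smooth muscle markers summed to between 64.1 and 87.7 per 10000 in the 4 libraries and to at most 0.191 in any MC mouse, pericyte markers to between 132.1 and 141.1, and fibroblast markers to between 256 and 476, so the sort also held cells with fibroblast transcripts. As the number of mice is not given, the 4 libraries count as 1 sample and no test was made. A gene was called different where the ratio to the mean of the 6 MC mice was at least 2-fold and all 4 libraries lay outside the range of the mice. Genes entered with at least 10 transcripts in 3 or more MC mice or in the 4 Myh11-GFP libraries together. Some entered only through the group where they were high: Nes and Synm through the Myh11-GFP cells and Lmnb1 through the MCs. For such genes the call follows in part from entry and is a description only. By the rule for calls, 17.6% of 10637 genes were higher and 15.7% lower in Myh11-GFP cells, and of the 10 genes 2 (20%) were higher and 3 (30%) lower.

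The genes called higher were Nes and Synm. Nes was at 1.82, 1.68, 1.06 and 0.857 per 10000 in libraries 13, 14, 15 and 16, and Synm at 1.17, 0.716, 1.27 and 0.722. Every library lay above every MC mouse, for which the highest values were 0.0462 and 0.0641. The ratios to the MC mean were 71.9 for Nes and 55.9 for Synm (exact 95% Poisson intervals from the Myh11-GFP counts, 62.4 to 82.4 and 47.2 to 65.7), and the intervals leave out the error of the 12 and 10 UMIs in the MCs. They moved by over 1.5 times with other choices. The ratio of Nes moved to 113.2 with Gm genes in the total. That of Synm moved to 88.4 with Gm genes, to 95.5 without cells rich in markers of other types and to 117.7 against WT mice only. The marker rule removed 219 of the 330 Myh11-GFP cells. In thinned cells, Nes was found in between 5.56% and 16.1% of the cells of a library and in at most 0.510% of the cells of a MC mouse.

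The genes called lower were Lmna, Lmnb1 and Lbr. Lmna was at 5.27, 4.96, 5.61 and 6.01 per 10000 in libraries 13 to 16, all below the lowest MC mouse at 20.03. Its ratio was 0.165 (interval 0.153 to 0.177), so that its mean in MCs was 6.07-fold higher. Lbr was at 0.209, 0.358, 0.345 and 0.451, with a ratio of 0.429 (0.314 to 0.572), and its call ended with Gm genes in the total (0.609) and without library 13 (0.503). Lmnb1 rested on 8 UMIs in all 4 libraries, with a ratio of 0.326 (0.141 to 0.643).

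Vim was lower in each Myh11-GFP library than in each MC mouse, at 34.2, 32.6, 40.9 and 35.1 per 10000, but by less than 2-fold (ratio 0.620, interval 0.603 to 0.637). This value depends on what the total holds: with Gm genes in it, the ratio was 0.916, while those of Emd, Sun1 and Sun2 passed 2-fold at 2.43, 2.59 and 2.69. Without cells with over 1% of fibroblast, macrophage or keratinocyte markers these 3 ratios also passed 2-fold, at 2.47, 2.23 and 2.12. That rule removed 219 of the 330 Myh11-GFP cells, so these values rest on the smaller part of the sort. A ratio of 2 genes within a library does not depend on the total. The ratio of Vim to Lmna transcripts was between 1.47 and 2.35 in the 6 MC mice. In the 4 Myh11-GFP libraries it was between 5.83 and 7.29, without overlap. Ratios to Emd did not overlap either. Lmna to Emd was between 8.17 and 26.9 in the mice and between 1.12 and 2.08 in the libraries. Vim to Emd was between 13.9 and 39.5 and between 7.35 and 12.1. The share of all gene pairs without overlap was not counted.

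Emd was at 3.99, 4.43, 3.67 and 2.89 per 10000 in the Myh11-GFP libraries, with a ratio of 1.77, and library 16 lay below Tln1ΔMC mouse 3. Sun1, between 0.716 and 0.993, and Sun2, between 1.06 and 1.22, lay above all mice with ratios of 1.79 and 1.84. Lmnb2 rested on 12 UMIs and was not outside the range of the mice. Over the pooled Myh11-GFP cells the order of the genes was Vim, Lmna, Emd, Nes, Sun2, Synm, Sun1, Lbr, Lmnb2 and Lmnb1, and in MCs Vim, Lmna, Emd, Lbr, Sun2, Sun1, Lmnb1, Lmnb2, Nes and Synm. In Myh11-GFP cells the range of Synm over libraries overlapped those of Nes, Sun2 and Sun1, that of Nes overlapped those of Sun2 and Sun1, and the ranges of both B-type lamins, which rest on 12 and 8 UMIs, overlapped each other. In MCs the ranges over mice overlapped for Lbr with Sun2, for Sun2 with Sun1, for both B-type lamins and for Nes and Synm. The range of Lbr lay above that of Sun1. Each transcript counts once in this 3′ method, so no correction for length was made.

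Within the Myh11-GFP cells, Vim and Synm were higher where the contractile genes were higher. Cells of each library were divided at the median of Acta2 plus Myh11, smooth muscle actin and myosin, into high and low cells, a cut through a continuous range with 36 cells within 20% of their cut. Vim was at 39.2, 39.03, 48.4 and 46.2 per 10000 in the high cells of libraries 13 to 16 and at 29.4, 27.5, 33.5 and 26.7 in the low cells. Every library was higher on the high side, and the ratio was 1.45 (exact interval for counting error 1.37 to 1.53).

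Synm had the largest ratio of the 10 genes. It was at 2.02, 1.56, 1.93 and 1.48 per 10000 in the high cells and at 0.365, 0.0492, 0.630 and 0.158 in the low cells. The groups did not overlap, and the ratio was 5.79 (3.71 to 9.38). Sun2 and Emd were also higher on the high side in all 4 libraries, with ratios of 1.53 (1.10 to 2.13) and 1.21 (1.02 to 1.43). Lmnb2 was too, but with 9 UMIs against 3 (ratio 3.42, 0.852 to 19.6), and Lmnb1, with 1 UMI against 7, was lower in 3 libraries (ratio 0.163, 0.00361 to 1.27).

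**Figure D5:**
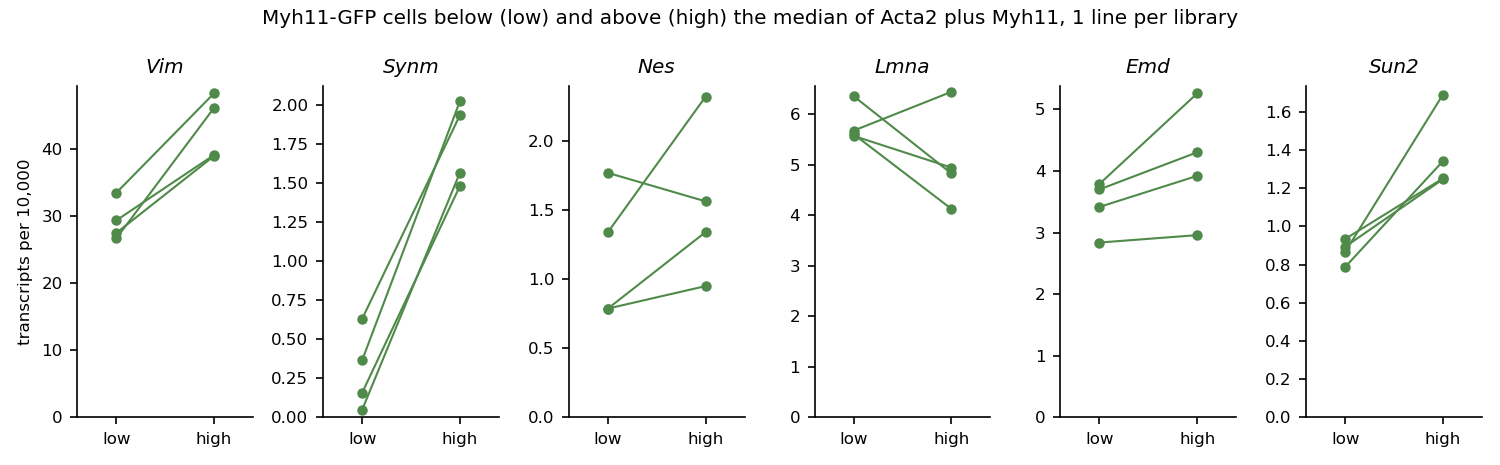
Levels in transcripts per 10000 (vertical axes, each from 0) in Myh11-GFP cells below (low) and above (high) the median of Acta2 plus Myh11 of their library, with 1 line per library. Vim, Synm, Emd and Sun2 are higher on the high side in all 4 libraries and Nes in 3, and Lmna is lower in 3.

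Nes was higher in the high cells of 3 libraries (ratio 1.37, 1.03 to 1.82) and Lmna lower in 3 (ratio 0.851, 0.736 to 0.983), whereas Sun1 and Lbr were higher in 2 libraries and lower in 2. Of 4390 genes with at least 50 transcripts, 18.6% were higher in the high cells of all 4 libraries and 12.1% lower, so that the same sign in 4 libraries was common. Fibroblast markers made up 1.30% of the transcripts of the high cells and 4.59% of those of the low cells, while pericyte markers made up 1.47% and 1.29%. Without cells with over 1% of fibroblast, macrophage or keratinocyte markers, a rule that removed 219 of the 330 cells, the ratio was 1.63 for Vim and 1.96 for Synm, and it turned for Nes to 0.645 and for Lmna to 1.05.

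Genes that act with the 10 were counted from a list of 43, of which 42 were in the tables. Between genotypes, 0 of the 30 tested passed limma's adjusted threshold, 4 (13.3%) had an unadjusted p under 0.05 against 5.84% of all genes tested, and the median log2 fold change was 0.15 against 0.00 over all genes. Between Myh11-GFP cells and MCs, 5 of 33 were higher (15.2%) and 5 lower (15.2%), near the shares for all genes. The same entry rule applied, so a gene near 0 in 1 group could enter through the other. Des, the muscle intermediate filament desmin, was at 3.17 per 10000 in Myh11-GFP cells and 0.0284 in MCs. The nesprins Syne1 and Syne2, which bind SUN proteins, were at 1.47 and 3.598 against 0.332 and 0.735, and the linker Dst at 2.53 against 0.734. Tmem43, named after its value was seen, was the fifth at 0.722 against 0.272.

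Plec, which encodes the linker plectin, was on the opposite side, at 13.7 per 10000 in MCs and 3.49 in Myh11-GFP cells. Tor1aip2, whose product activates torsin, was at 2.94 and 0.812. Syne3, Nrm and Nefh, named after their values were seen, were the other 3 lower genes, at 0.485, 0.985 and 0.122 in MCs and 0.0347, 0.159 and 0 in Myh11-GFP cells. Macf1, Tmpo, Banf1, Tor1aip1 and Tpr, with at least 1 transcript per 10000 in either cell type, were not called and had ratios between 0.746 and 1.41.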

How the data were processed

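Per the labels and the study's methods, single cells were sequenced by mCEL-Seq2. The authors demultiplexed with bcl2fastq 2.17.1.14, aligned with BWA 0.6.2-r126 to mouse gene models (mm10), and corrected UMIs of 6 bases to transcripts with a binomial formula. Those corrected transcripts were deposited, and in all 34 tables each value returned to a whole number of 4096 possible UMIs within 4.1e-12. Cells with over 1000 transcripts and at most 2% from Kcnq1ot1 were kept, without a doublet caller, since the study excluded doublets at the sort. The number after the genotype in the titles was taken as the mouse, and libraries of a mouse were summed. The members and lists were chosen with earlier results of these data known.

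The genotype comparison used limma 3.58.1 with a trend (R 4.3.3) for genes that reached 10 transcripts in 3 or more mice, on log2(transcripts per 1000000 + 1) after trimmed-mean scaling by code written for this purpose, with Benjamini-Hochberg adjustment over all genes at 0.05. Log2 values understate changes of low genes. A count model had been planned, and limma was used because a check of units could not read these tables as counts, although whole UMIs were recovered and were fitted with limma as an alternative. The fit was tested on simulated data. Shares of cells used seeded thinning in Python 3.11 and exact permutation tests. Intervals are exact 95% Poisson or binomial, and they and the limit from 0 counts, 3 counts of the total, cover counting error only.

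All 10 genes were named, whatever their values. Genes of the wider list were named with at least 1 transcript per 10000 in either cell type or an adjusted p under 0.05, and the 5 genes most like Vim and Lmna were sought among those with at least 1000 transcripts. No sequence is shown.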

Additional observations from a re-analysis of the deposited data

Results flagged for a closer look

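Among 43 sets of 4 to 10 libraries (members with a mean of at least 10 UMIs per library, within a mouse or within Myh11-GFP), 3 had a library far from the others by Dixon's criterion, which chance meets in about 1 set in 20. Vim in library 8 of Tln1ΔMC mouse 3 was at 21.3 per 10000, with the other 9 libraries between 45.01 and 57.7. Lmna in the same library was at 15.9, with the others between 25.7 and 35.1. This library holds the well with 431991 transcripts, and without it and the other outsized well the levels were 43.3 and 23.8. Sun2 in Myh11-GFP library 16 was at 1.22, with the others between 1.06 and 1.07, a difference within counting error at 27 UMIs.

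Barcodes outside the set that a library used, and with at most 1000 transcripts, held transcripts that no comparison used. Vim gave 935 UMIs there in the MC libraries, or 30.8 per 10000, and 76 UMIs in the Myh11-GFP libraries, or 17.7 per 10000. The source of these UMIs was not tested.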

How the results depend on the processing

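With no gene called between genotypes by limma, the count became 2 with voom weights and 4 with the barcode-background set as a block, both chosen after seeing the data, and between 0 and 17 when a mouse or library was left out: 1 without WT mouse 1, 12 without Tln1ΔMC mouse 1 and 17 without library 3 of that mouse. None of the 8 tested members passed in any alternative run. Same-numbered mice share only a number, with deviations that correlated at 0.16, -0.21 and -0.27; with the number as a replicate block 0 genes were called, 437 at an unadjusted p under 0.05. The planned DESeq2 alternative was not run, because a check of units could not read these tables as counts. Depth limits Synm, Nes and both B-type lamins most.

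Estimates near 0 changed sign. The log2 fold change of Vim became 0.0021 with no filter, 0.053 with libraries 1 to 4 only of Tln1ΔMC mouse 3 and 0.25 with the set as a block. That of Lmna became -0.025 without cells rich in other cell types' markers and -0.034 as a mean over cells. That of Lmnb1 became -0.0079 with RLE factors, -0.028 with plain totals, -0.013 with Gm genes, -0.43 as a mean over cells and -0.040 with the set as a block. That of Sun2 became -0.019 with plain totals, -0.025 with libraries 1 to 4 only, -0.10 as a mean over cells and -0.0033 with the set as a block. Leaving out mice or libraries gave ranges of -0.21 to 0.18 for Vim, -0.33 to 0.28 for Lmna, -0.36 to 0.32 for Lmnb1, -0.29 to 0.021 for Sun1, -0.20 to 0.17 for Sun2 and -0.15 to 0.084 for Lbr. The share of cells with a UMI, Tln1ΔMC minus WT, became 0.312 percentage points for Vim and 0.642 for Lmna at 500 UMIs, and 3.43 and 5.45 unthinned. The causes were not tested.

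Ratios of Myh11-GFP cells to MCs moved with Gm genes in the total: Vim 0.916, Synm 88.4, Nes 113.2, Lmna 0.243, Emd 2.43, Sun1 2.59, Sun2 2.69 and Lbr 0.609. Without marker-rich cells they were 95.5 for Synm, 0.140 for Lmna, 2.47 for Emd, 2.23 for Sun1 and 2.12 for Sun2. That rule removed 219 of the 330 Myh11-GFP cells. Synm was 117.7 against WT mice only and 72.2 with over 1000 transcripts outside Gm genes. For Acta2-Myh11 high over low cells, Vim was 1.74 between outer tertiles and, without marker-rich cells, Vim was 1.63, Nes 0.645, Lmna 1.05, Emd 1.04, Sun2 1.19 and Lbr 0.400. The causes were not tested.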
